A study of Homo sapiens with 24 samples.

Results

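Transcripts of sterol and fatty acid synthesis were followed in RWPE1, a line of immortalized but not tumor-forming epithelial cells from the prostate, kept with 100 nM 1,25(OH)2D (the active hormone made from vitamin D) or with vehicle, 0.1% ethanol. The set has 36 genes, chosen by symbol, of which 17 encode enzymes of sterol synthesis, 6 encode regulators or a sterol transport protein and 13 encode enzymes of fatty acid synthesis and modification. A probe set that carries the symbol of that gene alone was found for 32 of the 36 genes, and all 32 passed the filter on dim probe sets, 15 in the sterol arm, 6 among the regulators and 11 in the fatty acid arm. CYP51A1, FADS1 and ELOVL1 were read only by probe sets that carry a second symbol and FDFT1 was unnamed in the annotation used, so these 4 genes were not analysed here. The 32 genes were read by 72 probe sets, 66 of them tested, among 12010 genes tested in all.

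The 6 groups were vehicle at 6, 24 and 48 h and 1,25(OH)2D at 6, 24 and 48 h, each with 4 arrays that the labels call biological replicates, 24 arrays in all. All groups shared the line and the serum-free keratinocyte medium, and in the 48 h groups the medium was replaced at 24 h, so a change between 24 and 48 h and the fresh medium cannot be told apart. All arrays are of 1 cell line, and the p-values measure the spread between these cultures. In bulk RNA, a lower level may mean fewer cells that carry a transcript or less of it per cell, and these cannot be told apart.

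In the sterol arm, acetyl-CoA is built up to mevalonate, to isoprenoid units, to squalene and finally through lanosterol to cholesterol. In the fatty acid arm, cytosolic acetyl-CoA is carboxylated and joined into palmitate, which elongases and desaturases then lengthen and desaturate. Many genes of both arms share transcription factors of the SREBP family, which SCAP carries out of the endoplasmic reticulum when sterols are low and which INSIG proteins hold back when sterols are plentiful. Prostate epithelium makes sterols and fatty acids itself, and both pathways have been studied there for their part in growth.

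Promoter windows show which of these genes carry the short elements through which SREBP factors and their partner NF-Y are known to act. RefSeq (GRCh38.p14) gave 43 windows for 32 of the 36 genes, some with several starts, and none for ACAT2, FASN, FDFT1 and SQLE. Over the 250 bases before the start and on both strands, the sterol response element TCACNCCAC was present in 1 of the 43 windows, that of SREBF2, and in 0.883% of the 35116 windows of the whole table. The NF-Y box CCAAT was present in 27 of the 43 windows, from 23 of the 32 genes, and in 32% of all windows. The DR3 element, the direct repeat bound by the vitamin D receptor, was in 0 of the 43 windows and in 0.0655% of all windows. Among the members called in a treatment comparison, INSIG2 and ELOVL7 held none of these elements in their windows. DHCR7 and ACLY, called or with an effect that differed between times, held CCAAT and are not printed. A match is a description of letters and not a bound site, and no match says only that these letters are not in this stretch. The stretches of the SREBF2 window and of 5 members called in a treatment comparison, or with an effect that differed between times, are given here, each with 20 bases on either side of the outermost match and the matches in capitals (the sterol element and CCAAT in SREBF2, CCAAT or its complement ATTGG in the others).
SREBF2, chr22:41832952-41833023, plus strand: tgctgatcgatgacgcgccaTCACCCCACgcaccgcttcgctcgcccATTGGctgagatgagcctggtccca
TM7SF2, chr11:65111778-65111822, plus strand: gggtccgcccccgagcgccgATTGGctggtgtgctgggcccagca
LSS, chr21:46228900-46228944, minus strand: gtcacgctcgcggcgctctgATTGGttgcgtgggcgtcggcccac
HSD17B7, chr1:162790630-162790674, plus strand: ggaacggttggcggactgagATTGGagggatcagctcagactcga
ACSS2, chr20:34874846-34874890, plus strand: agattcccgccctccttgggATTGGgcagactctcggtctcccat
SCD5, chr4:82798907-82798951, minus strand: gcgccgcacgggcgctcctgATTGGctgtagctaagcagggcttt

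RWPE1 cells carried the epithelial transcripts their label implies. KRT5 and KRT14, keratins of basal epithelium, averaged 15.3 and 16.1 (log2) over the 24 arrays, while KLK2, TMPRSS2 and ACP3 of luminal prostate cells averaged between 2.31 and 2.71 and were not tested as too dim, and KLK3 averaged 3.92. Of 7 stromal markers, COL1A1 averaged 10.0 and the other 6 between 2.31 and 3.28, and the 5 immune or endothelial markers measured lay between 1.57 and 3.66. The first component of the deviations from group means held 71.9% of their variance. On it 4 arrays lay more than 0.3 from their group mean, namely replicate 1 of vehicle at 6 h (-0.35), replicate 1 of vehicle at 24 h (-0.36) and, with 1,25(OH)2D at 24 h, replicates 1 (0.41) and 4 (-0.54). The 3′ minus 5′ difference of the ACTB controls, a sign of RNA quality, averaged lower in treated than in vehicle cultures at each time, 0.68 against 0.74 at 6 h, 0.58 against 0.69 at 24 h and 0.62 against 0.68 at 48 h, and treated replicate 4 at 24 h had the lowest value (0.46). For the GAPDH controls the group averages lay between -0.047 (1,25(OH)2D at 24 h) and -0.019 (vehicle at 6 h). They were lower in treated than in vehicle cultures at 6 and 24 h but higher at 48 h (-0.026 against -0.038). The part of RNA quality in the results was not tested.

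After 6 h of 1,25(OH)2D, INSIG2 alone rose among the 32 genes and none fell. Over all genes tested 2.36% were called higher and 1.04% lower at an adjusted p under 0.05. INSIG2 encodes one of the endoplasmic reticulum proteins that retain SCAP. Its log2 values in vehicle were 6.99, 7.43, 7.36 and 7.38, against 8.27, 8.02, 8.83 and 8.67 with 1,25(OH)2D. Every treated array lay above every vehicle array, and the difference was 1.16 ± 0.19 (log2, SE, n = 4 per group), or 2.24-fold (adjusted p = 0.0171, limma). The call was lost when vehicle replicate 2, 3 or 4 or treated replicate 4 was left out (adjusted p from 0.0525 to 0.0680), and when all 24 arrays were fitted together (0.0510), with a difference of 1.09 to 1.21 in each of these fits. Its paralog INSIG1, itself a target of SREBP factors, gave -0.39 (adjusted p = 0.789).

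None of the remaining members passed the test at 6 h. In the sterol arm 12 of 15 differences were below 0, with a median of -0.12, and in the fatty acid arm 8 of 11, with a median of -0.18, against 7040 of 12010 and a median of -0.03 over all genes. Of the 6 regulators 3 were below 0. The lowest was HMGCS1, the synthase that commits acetyl-CoA units to mevalonate, at -0.95 ± 0.31 (adjusted p = 0.262), and without vehicle replicate 1 it passed (-1.22, adjusted p = 0.0331). NSDHL, a sterol dehydrogenase, went the other way at 0.57 (adjusted p = 0.0900), and without vehicle replicate 1 it passed too, higher with 1,25(OH)2D (0.66, adjusted p = 0.0429). The groups did not overlap for 5 members, with INSIG2 and NSDHL higher, as in 4.6% of all genes, and HSD17B7, ACLY and FASN lower, as in 4.25%.

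At 24 h none of the 32 members passed the test, in fits where 0.325% of all genes were called higher and 0.192% lower. At an unadjusted p under 0.05 there were 11 members, as were 9.79% of all genes, among them 7 sterol enzymes (TM7SF2, NSDHL, DHCR7, MVK, LSS, EBP and FDPS), all above 0. In the sterol arm 11 of 15 differences were above 0, with a median of 0.39 against 0.01 over all genes. TM7SF2, a sterol reductase acting after lanosterol, gave 1.81 ± 0.43 (adjusted p = 0.222), with vehicle arrays at 6.41, 5.75, 6.35 and 6.16 and treated arrays at 6.87, 8.07, 7.88 and 9.07. All 4 treated arrays were higher than all 4 vehicle arrays, and treated replicates 1 and 4, both apart on the first component, were its lowest and highest. NSDHL gave 0.81, MVD, the decarboxylase that yields isopentenyl diphosphate, 0.70, and DHCR7, the last enzyme of one route to cholesterol, 0.62. Groups that did not overlap were those of TM7SF2, ACLY and ACSS2, higher with 1,25(OH)2D (3.04% of all genes), and of SCD5, lower (3.06%).

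On their brightest probe sets, other sterol genes did not share the higher values at 24 h. IDI1, which isomerises isopentenyl diphosphate, gave -0.53, SC5D, a sterol desaturase, -0.45, HMGCS1 -0.09 and SQLE, which epoxidises squalene, -0.02. The 6 regulators lay between -0.96 for STARD4, a carrier of cholesterol between membranes, and 0.07 for SCAP. SREBF2, the gene of the SREBP factor tied most closely to sterol synthesis, was at -0.01 and SREBF1 at -0.17. In the fatty acid arm 6 of 11 differences were above 0, from ACSS2 (0.67), FADS3 (0.59) and ACLY (0.34) to FASN (0.13), and 5 were below it, SCD5 (-0.66), the elongases ELOVL5 (-0.46) and ELOVL6 (-0.43), SCD (-0.28) and ACACA (-0.09). STARD4 had a standard error of 1.0 at 24 h, the widest of the members. The sign depended on the probe set for some of these genes. Further tested probe sets gave 0.44, 0.15 and 0.03 for SQLE, 0.34 for ACACA and 0.20 for ELOVL5. Those of SCD5 gave -0.02, 0.06 and 0.11, those of SREBF2 0.29 and 0.004, and that of SREBF1 0.004. Further tested probe sets of HMGCS1, IDI1, SCD and ELOVL6 were all below 0.

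Of the 4 arrays that stood apart, 3 are of this time point. Without them, with 2 treated and 3 vehicle arrays, 13 members were called higher and 4 lower, and of all genes 10.6% and 14.2%. In the sterol arm 9 of 15 rose in that fit (TM7SF2 1.89, NSDHL 0.97, MVD 0.96, DHCR7 0.74, MVK 0.69, LSS 0.58, PMVK 0.48, EBP 0.47, FDPS 0.40) and IDI1 fell by 0.67. Among the regulators STARD4 fell by 1.03 and INSIG2 by 0.47, and in the fatty acid arm ACSS2, FADS3, ACLY and FADS2 rose while SCD5 fell by 0.60. The adjusted p-values of these 17 genes lay between 0.0128 and 0.0448 (limma). The arrays were left out for their distance from the group mean in these same values. That choice can make the remaining spread, and so the p-values, too low. The same limit holds for every result given here without arrays that stood apart. In a fit of all 24 arrays 6 members were called higher at 24 h and 1 lower, and with any single array of the time point left out the count was 0.

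The sign of a member at 24 h went with its place on the first component, which was computed from deviations within groups. Taking out group means does not remove a response that varied among the treated cultures. The treated arrays at 24 h spread widest on this component (SD 0.40). All 10 sterol enzymes with a negative loading had higher means at 24 h, as did all 5 such fatty acid enzymes but only 1 of 3 such regulators. Of the 14 members with a positive loading, 12 had lower means. The same held over all genes, where 84.2% had a 24 h difference opposite in sign to their loading, against 87.5% of the members. At 48 h, when all arrays lay within 0.074 of their group mean on the component, the shares were 56.4% of all genes and 78.1% of the members, and at 6 h they were 48% and 53.1%. The part of this component in the 24 h differences was not tested.

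**Figure D1:**
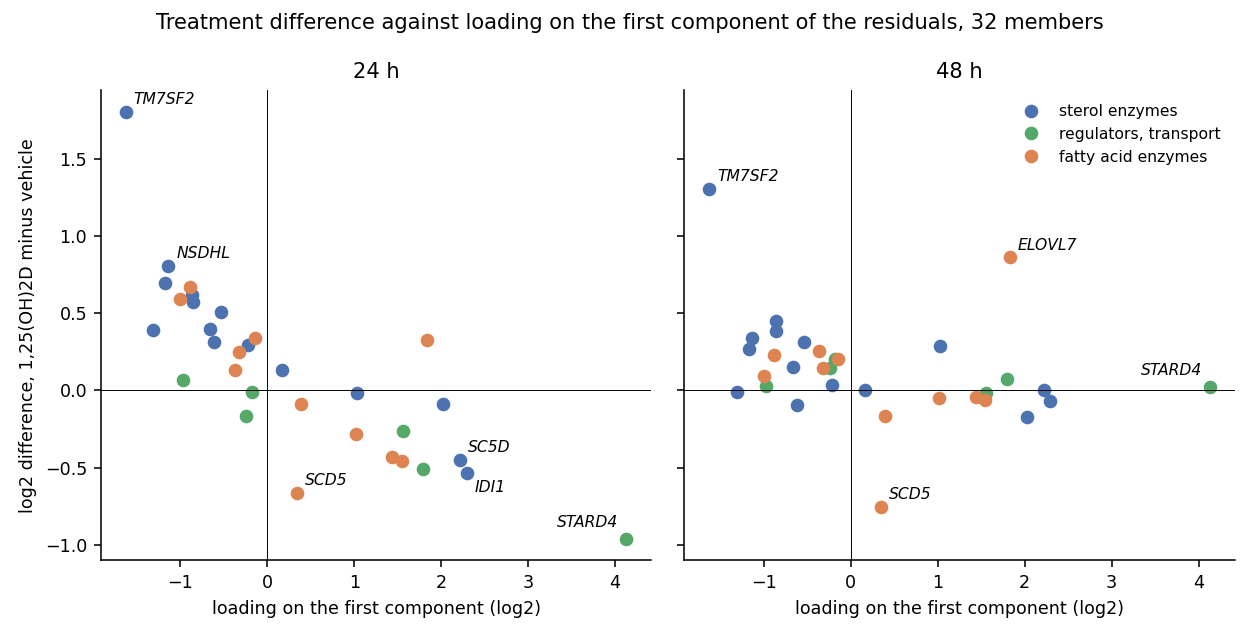
Each point is 1 of the 32 members; the x axis gives its loading on the first component of the within-group deviations (log2) and the y axis the log2 difference between 1,25(OH)2D and vehicle at 24 h (left) and 48 h (right), with colors for the sterol enzymes, the regulators and the fatty acid enzymes. At 24 h the points run from TM7SF2 at the upper left (1.81) to STARD4 at the lower right (-0.96), and at 48 h STARD4 lies near 0 (0.02) while TM7SF2 (1.31) and SCD5 (-0.76) keep their sign.

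After 48 h of 1,25(OH)2D, 5 of the 32 members rose and 1 fell, where 5.13% of all genes were called higher and 6.87% lower. Of the sterol enzymes TM7SF2, DHCR7 and LSS rose, none fell and 12 did not pass. In the fatty acid arm ELOVL7 and ACSS2 rose, SCD5 fell and 8 did not pass, and none of the 6 regulators passed. The groups did not overlap for 9 members that were higher (8.39% of all genes), which were MVK beside the 3 sterol enzymes and ACLY, FASN and FADS2 beside the 2 fatty acid enzymes, and for SCD5, which was lower (10.8%). Of the 13 markers of cell types tested, KRT15, a basal keratin, fell by 1.92 (adjusted p = 9.4e-05) and COL1A1 by 0.60 (0.0136) at 48 h, and none was called at 6 or 24 h. Their part in the changes of the members was not tested.

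TM7SF2 had vehicle values of 6.12, 5.87, 6.33 and 6.30 (log2) at 48 h and treated values of 8.0, 6.95, 7.43 and 7.47. No treated array came within the vehicle range, and the difference of 1.31 ± 0.21 was 2.48-fold (adjusted p = 0.00749). TM7SF2 was read by 1 tested probe set. LSS, the cyclase that closes squalene epoxide into lanosterol, rose by 0.31 ± 0.05 (adjusted p = 0.00817) and a second of its probe sets by 0.29 (0.0238), while the third gave 0.03 (0.968). DHCR7 rose by 0.38 ± 0.07 (adjusted p = 0.0142) and by 0.38 on its second probe set (0.0103). MVK, which phosphorylates mevalonate, just missed the threshold on its brightest probe set (0.45, adjusted p = 0.0543) and passed it on the other 2 tested (0.51, adjusted p = 0.0107, and 0.54, adjusted p = 0.00995).

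ELOVL7 encodes an elongase of long-chain fatty acids. Its values at 48 h were 7.05, 6.68, 6.64 and 6.57 in vehicle and 7.39, 7.81, 7.62 and 7.56 with 1,25(OH)2D. The groups were apart by 0.86 ± 0.12, or 1.82-fold (adjusted p = 0.00478), while at 6 and 24 h they overlapped. SCD5, a desaturase that makes monounsaturated fatty acids, had 9.19, 8.91, 9.06 and 9.28 in vehicle and 8.28, 8.64, 8.36 and 8.13 with 1,25(OH)2D. It fell by 0.76 ± 0.12 on the log2 scale, or 1.69-fold (adjusted p = 0.00749), and a second, dimmer probe set fell by 0.46 (0.0109), with the other 2 tested at -0.22 and 0.05 not passing. At 6 and 24 h SCD5 was lower by -0.34 (adjusted p = 0.290) and -0.66 (0.113). The paralog SCD, the main stearoyl-CoA desaturase of most tissues, gave -0.05 at 48 h (adjusted p = 0.941).

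**Figure D2:**
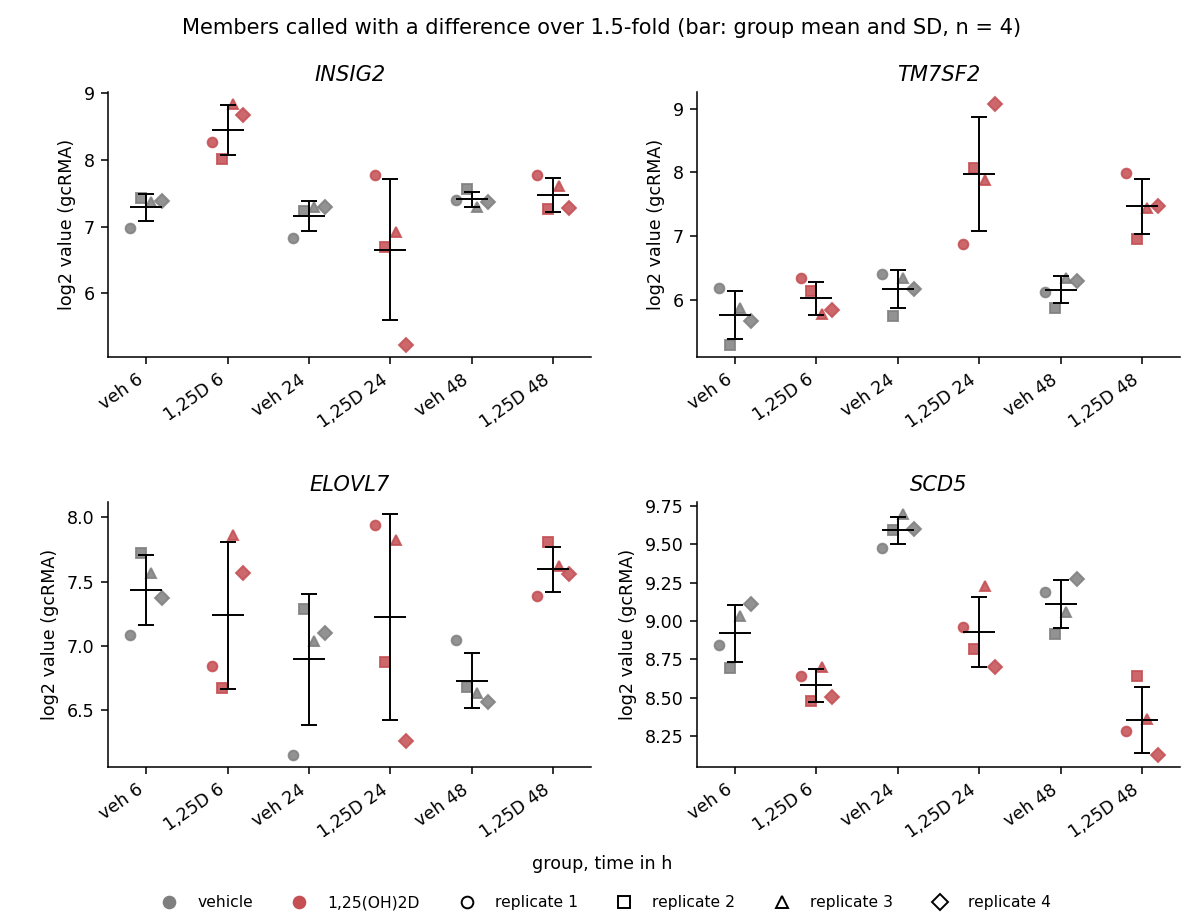
Log2 values (y axis) of INSIG2, TM7SF2, ELOVL7 and SCD5 on every array of the 6 groups (x axis, time in h), gray for vehicle and red for 1,25(OH)2D, with a marker for each replicate number and bars for the group mean and SD (n = 4). INSIG2 is apart at 6 h only, TM7SF2 at 24 and 48 h, ELOVL7 at 48 h and SCD5, lower with 1,25(OH)2D, at 24 and 48 h.

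ACSS2, which makes cytosolic acetyl-CoA from acetate, rose by 0.23 ± 0.06 at 48 h (adjusted p = 0.0448), a call lost when any single array but treated replicate 2 was left out (0.0508 to 0.114). Of the members not called at 48 h, FASN, the fatty acid synthase, gave 0.26 (adjusted p = 0.158) and ACLY, which splits citrate into acetyl-CoA, 0.20 (0.0569). FADS2 gave 0.15, FADS3 0.09, ELOVL5 -0.06, ELOVL6 -0.04 and ACACA -0.16. The sterol enzymes not called lay, MVK apart, between -0.17 (HMGCS1) and 0.34 (NSDHL), and the regulators between -0.01 (INSIG1) and 0.20 (SREBF2). The 48 h count depended on the fit. It was 2 when all 24 arrays shared 1 estimate of the spread (TM7SF2 and SCD5), 10 with the mean of each gene's probe sets, and 11, 9 higher and 2 lower, without treated replicate 2.

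**Figure D3:**
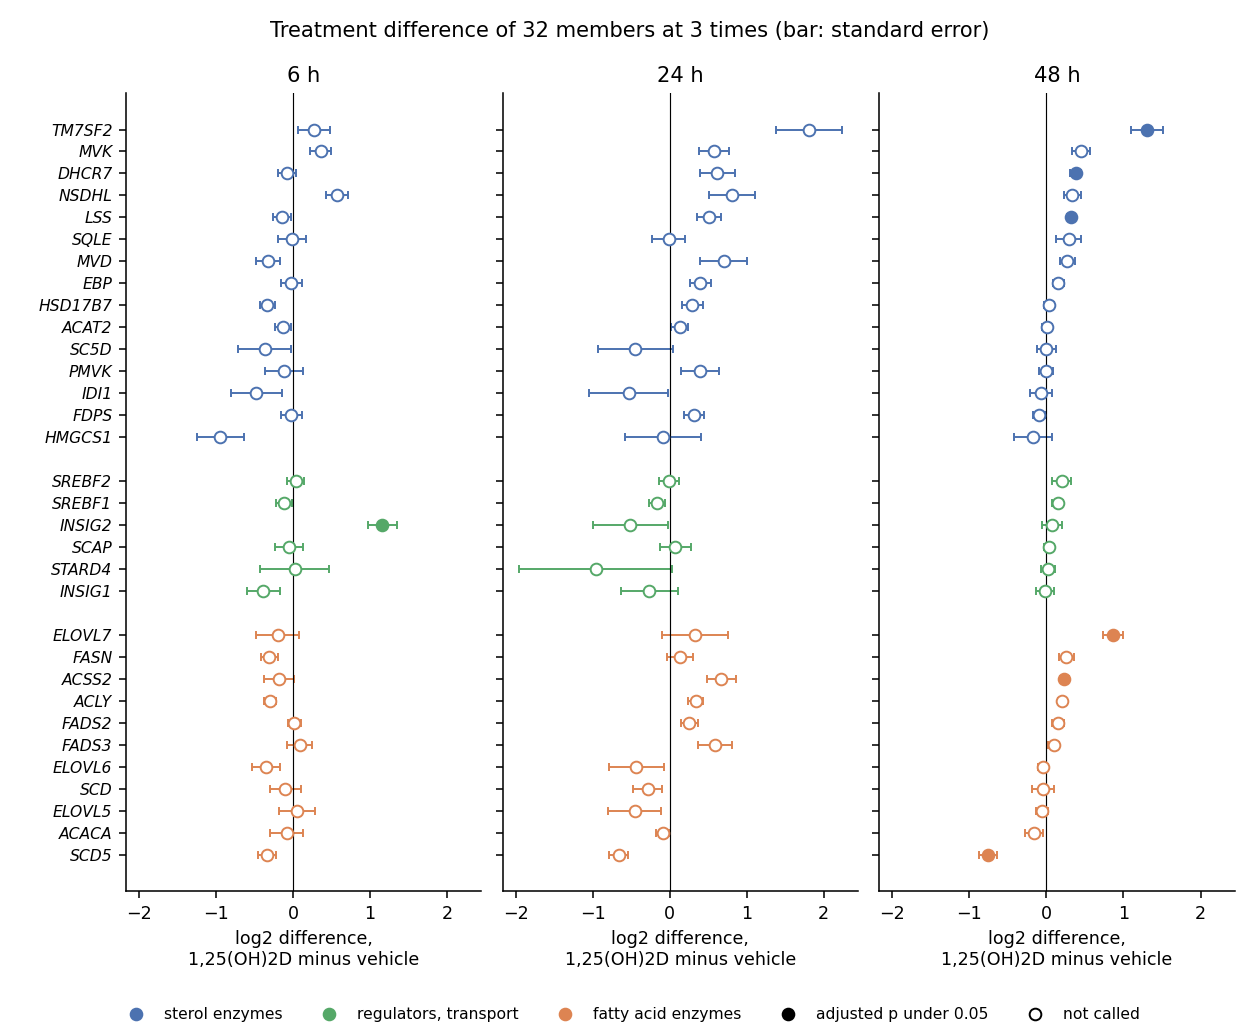
Log2 differences between 1,25(OH)2D and vehicle (x axis) of the 32 members at 6, 24 and 48 h, with standard errors as bars, colors for the 3 groups of members and filled points for an adjusted p under 0.05. The bars are widest at 24 h, where no point is filled, and at 48 h the filled points are TM7SF2, DHCR7, LSS, ELOVL7 and ACSS2 above 0 and SCD5 below it.

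As the mean per array, the 15 enzymes of the sterol arm had treated and vehicle arrays apart at each time, while those of the fatty acid arm overlapped. Each gene was set against its own mean over the 24 arrays and the genes of an arm were averaged, with no test. The sterol arm was, in vehicle and then with treatment, at 0.003 ± 0.097 (SD, n = 4) and -0.116 ± 0.024 at 6 h, at -0.045 ± 0.078 and 0.318 ± 0.177 at 24 h, and at -0.186 ± 0.084 and 0.027 ± 0.062 at 48 h. The treated arrays were thus all below the vehicle arrays at 6 h and all above them at 24 and 48 h, though at 24 h the lowest treated array, replicate 1 (0.062), was next to the highest vehicle array (0.052). The differences were -0.119, 0.364 and 0.213. With the 6 regulators averaged in, treated and vehicle arrays overlapped at 6 and 24 h and were apart at 48 h only. At 24 h they then ran from -0.201 to 0.076 in vehicle and from -0.035 to 0.259 with 1,25(OH)2D. The fatty acid arm gave -0.155, 0.035 and 0.065, and its treated and vehicle arrays overlapped at all 3 times. With 1 array left out at a time its difference ran from -0.028 (without treated replicate 3) to 0.093 (without treated replicate 4) at 24 h, so that its sign turned, and from 0.012 (without treated replicate 2) to 0.099 at 48 h. The median of all tested probe sets was lower by 0.17 with 1,25(OH)2D at 24 h. Once that median was taken out of every array, the 24 h differences became 0.529 and 0.200. At 48 h the differences of single sterol enzymes ran from -0.17 to 1.31 (TM7SF2), with a median of 0.15. Those of the fatty acid enzymes ran from -0.76 (SCD5) to 0.86 (ELOVL7), with a median of 0.09. The weight of single genes in the arm means was not tested.

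**Figure D4:**
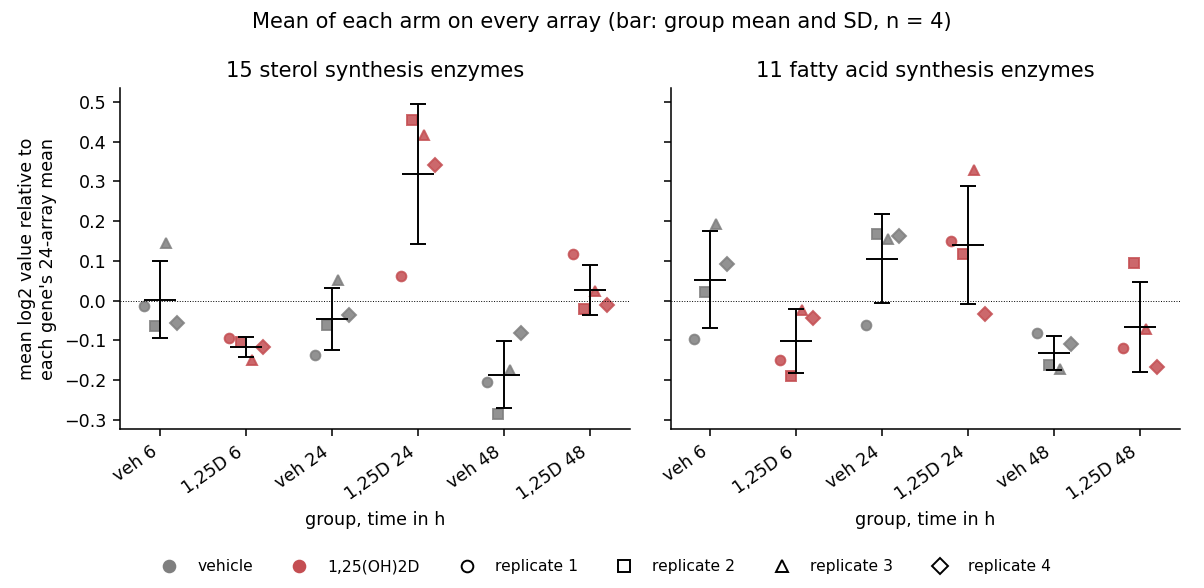
Mean log2 value of the 15 sterol enzymes (left) and the 11 fatty acid enzymes (right) on each array, relative to each gene's mean over the 24 arrays (y axis), for the 6 groups (x axis, time in h), with bars for the group mean and SD (n = 4). In the sterol arm 3 of the 4 treated arrays at 24 h lie between 0.341 and 0.453 and replicate 1 at 0.062, and the fatty acid arm overlaps between treatments at every time.

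Without treatment, changes with time were tested from 6 to 24 h and from 24 to 48 h, and not from 6 to 48 h. From 6 to 24 h in vehicle, SREBF1, SCD5 and FADS2 rose and FADS3 fell, 4 of 32 members, where 5.07% of all genes rose and 3.9% fell. SREBF1, the gene of the SREBP factor tied most closely to fatty acid synthesis, rose by 0.85 ± 0.09 (adjusted p = 3.9e-06) from a range of 8.84 to 9.17 to one of 9.70 to 10.02. With 1,25(OH)2D it rose by 0.81 ± 0.09, and the difference between both rises was -0.05 ± 0.13 (adjusted p = 0.847). These values are of its brightest probe set. The second, dimmer one averaged 6.74 at 6 h and 6.80 at 24 h in vehicle, and 6.74 and 6.81 with 1,25(OH)2D. Over 17 alternative fits the rise of SREBF1 in vehicle was 0.46 at the lowest, and the call held in all 17. SCD5 rose by 0.67 (adjusted p = 0.00134), FADS2, a desaturase of polyunsaturated fatty acids, by 0.34 (0.0206), and FADS3 fell by 0.59 (0.0333), calls lost in 5 of 17 alternative fits for FADS2 and 7 of 17 for FADS3. From 24 to 48 h in vehicle, with fresh medium, none of the 32 members passed, where 0.167% of all genes rose and 0.258% fell, and 7 members had an unadjusted p under 0.05, as had 9.5% of all genes. INSIG1 ranged from 10.55 to 11.22 in vehicle at 6 h and averaged 10.2 at 24 h and 9.52 at 48 h, and neither step passed (adjusted p = 0.0661 and 0.501). Without the arrays that stood apart INSIG1 fell at both steps, by 0.74 (adjusted p = 0.0173) and 0.89 (0.0152).

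With 1,25(OH)2D, 15 of the 32 members rose from 6 to 24 h and 1 fell, where 11.2% of all genes rose and 8.19% fell. In the sterol arm 10 of 15 rose, by between 0.36 (ACAT2, which joins acetyl-CoA units) and 1.96 (TM7SF2). MVD rose by 1.20, LSS by 0.97, HSD17B7, a sterol ketone reductase, by 0.84, DHCR7 by 0.78, PMVK, which adds the second phosphate to mevalonate, by 0.69, FDPS, the synthase of farnesyl diphosphate, by 0.65, MVK by 0.55 and EBP, a sterol isomerase, by 0.41. IDI1, SC5D, SQLE, HMGCS1 and NSDHL did not pass, the first 3 at -0.79, -0.86 and -0.50. In the fatty acid arm ACSS2 rose by 1.05, FASN by 0.74, FADS2 by 0.57 and ACLY by 0.43, while ACACA, the acetyl-CoA carboxylase, gave 0.42 (adjusted p = 0.0684). SREBF1 rose too, and INSIG2 fell by 1.80 ± 0.33 from its 6 h level (adjusted p = 0.000777). These comparisons share the treated arrays at 24 h, 2 of which stood apart, and without all 4 such arrays 17 members rose and 2 fell. From 24 to 48 h with 1,25(OH)2D none rose and 4 fell, ACLY, SCD5, ACAT2 and FDPS, by between 0.43 and 0.58, where 0.741% of all genes rose and 1.69% fell.

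The effect of 1,25(OH)2D itself differed between 6 and 24 h for 3 members, ACLY, LSS and HSD17B7, each higher at 24 h, where 1.05% of all genes had a higher and 1.79% a lower effect. At 6 h ACLY ranged from 13.05 to 13.25 in vehicle and from 12.82 to 12.87 with 1,25(OH)2D, and at 24 h from 12.90 to 12.98 in vehicle and from 13.02 to 13.41 with 1,25(OH)2D. The treated arrays were thus all lower at 6 h and all higher at 24 h. The difference went from -0.30 to 0.34, and these differed by 0.64 ± 0.11 (adjusted p = 0.00105), a call that held in all 25 alternative fits. At 6 h all 3 probe sets of ACLY gave -0.30, and at 24 h they gave 0.34, 0.52 and 0.54. Its effect at 48 h also differed from that at 6 h, by 0.50 ± 0.11 (adjusted p = 0.00845), alone among the members, where 1.47% of all genes had a higher and 2.23% a lower effect, and this call was lost with centred arrays (0.298) and with the mean of its probe sets (0.0524).

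For LSS the effect went from -0.14 at 6 h to 0.51 at 24 h, a difference of 0.65 ± 0.17 (adjusted p = 0.0419), and for HSD17B7 from -0.33 to 0.29, a difference of 0.62 ± 0.15 (0.0271). With centred arrays neither passed (adjusted p = 0.193 and 0.112), and over all alternatives the call was lost in 14 of 25 fits for LSS and 9 of 25 for HSD17B7. For INSIG2 the effect went the other way, from 1.16 to -0.51, and the difference of -1.67 ± 0.47 did not pass (adjusted p = 0.0713), but without the arrays that stood apart it did (-1.53, adjusted p = 0.00175). Between 24 and 48 h no member's effect differed, where 0.0333% of all genes had a higher and 0.0167% a lower effect, and 3 members had an unadjusted p under 0.05, as had 4.09% of all genes.

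**Figure D5:**
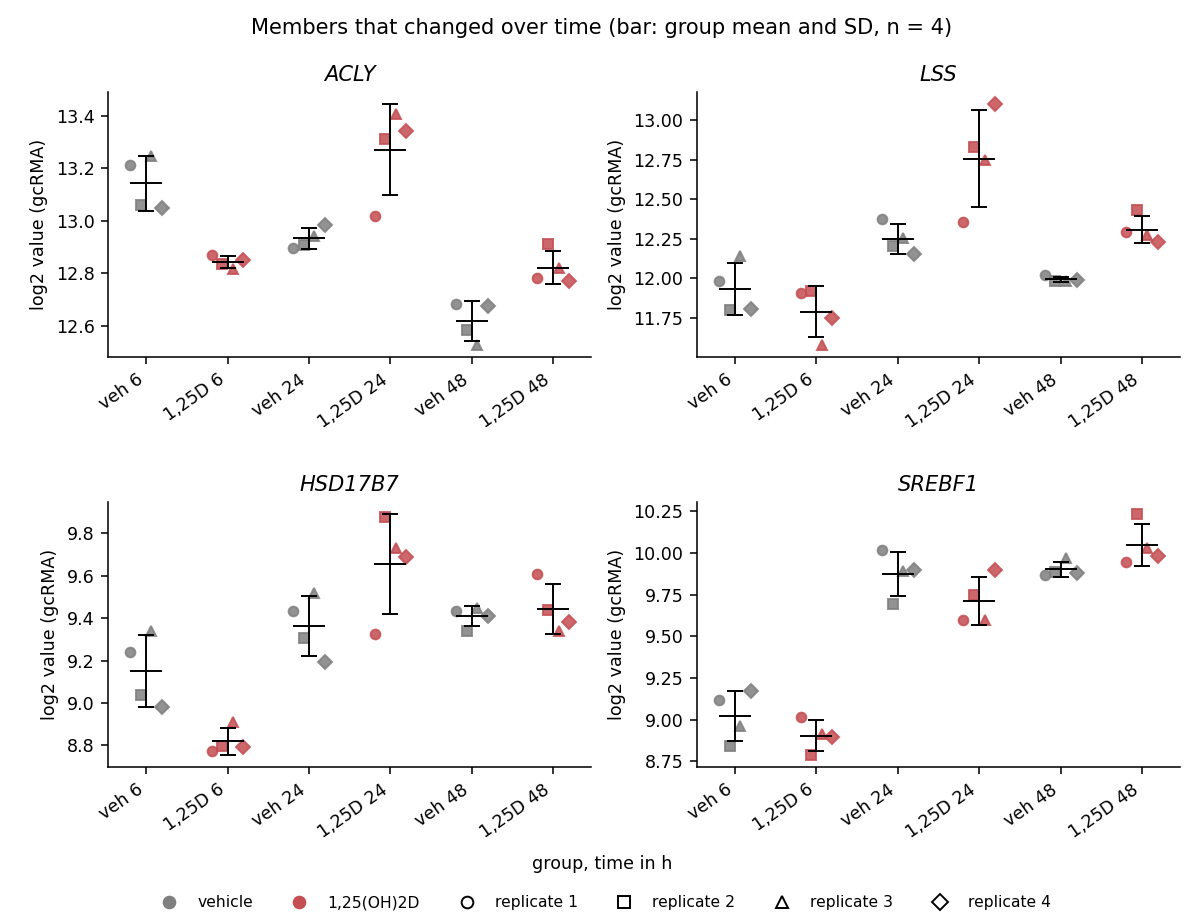
Log2 values (y axis) of ACLY, LSS, HSD17B7 and SREBF1 on every array of the 6 groups (x axis, time in h), gray for vehicle and red for 1,25(OH)2D, with bars for the group mean and SD (n = 4). The treated arrays of ACLY lie below vehicle at 6 h and above it at 24 and 48 h, and SREBF1 moves from a mean of 9.02 at 6 h to one of 9.88 at 24 h in vehicle.

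Of 13 further sterol, isoprenoid and cholesterol handling genes tested, 3 rose at 48 h, where 5.13% of all genes did, and none was called at 6 or 24 h. They were PDSS1 (0.55, adjusted p = 0.00129), part of the enzyme that makes the ubiquinone side chain, SOAT1 (0.32, adjusted p = 0.0458), which esterifies cholesterol, and TMEM97 (0.29, adjusted p = 0.0154), a sterol-responsive membrane protein. Of 16 further fatty acid genes, CYB5A, which passes electrons to desaturases, rose at 24 h (0.53, adjusted p = 0.0459), where 0.325% of all genes did, and at 48 h (0.60, 0.00416). ACSL1, which activates long-chain fatty acids, rose at 48 h (0.66, adjusted p = 0.00195), and none was called at 6 h.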

How the data were processed

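Log2 values of all 24 arrays, deposited as 1 table, were used. The authors corrected the background, normalized the arrays together and summarised probe sets with gcRMA. The table they deposited thus holds log2 intensities, and the gcRMA version is not given in the sources used here. How this background correction alters the differences of dim probe sets was not tested. Arrays have no read depth, so their number limits the precision. The members and lists were chosen with earlier results of these data known. Without the controls, probe sets were ranked by the level that 3 arrays of a group attained, and the top 26000 were tested (lowest value kept 3.2, log2). Of these 21891 carry 1 symbol, 1087 several and 3022 none. Each of 12010 genes was represented by its brightest tested single-symbol probe set. With lmFit and eBayes of limma 3.58.1 (R 4.3.3), treated and vehicle arrays were compared within each time (8 arrays), and 1 fit of all 24 arrays gave changes over time and differences of the effect. p-values were adjusted over all tested probe sets (Benjamini-Hochberg, threshold 0.05). The script was tested on simulated data. All 36 members are named, other pathway genes if called in a treatment comparison, and values per array are printed for members called in a treatment comparison with over 1.5-fold. Alternatives were the samples fitted, the replicate block, the filter, normalization, centring, an offset of 32, the mean of probe sets, and arrays left out. The MAS5 present calls were not used here.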

Additional observations from a re-analysis of the deposited data

Results flagged for a closer look

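The effect of 1,25(OH)2D differed between times for 3 members in limma's test of the difference itself. It was higher at 24 than at 6 h by 0.64 for ACLY (from -0.30 to 0.34), 0.65 for LSS (from -0.14 to 0.51) and 0.62 for HSD17B7 (from -0.33 to 0.29, log2), and higher at 48 than at 6 h by 0.50 for ACLY.

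In 15 of 192 groups of 4 arrays, 1 array of a member lay far from the other 3 by Dixon's test, which flags about 1 in 20 groups by chance. Replicate 1 of vehicle at 24 h, which stood apart on the first component, was the lowest for IDI1 (9.93), SQLE (11.3), INSIG2 (6.83), STARD4 (5.79), SCD (13.3) and ELOVL5 (11.6) and the highest for SCAP (10.3) and FADS2 (10.3). Replicate 1 of vehicle at 6 h was the lowest for INSIG2 (6.99), and replicate 4 with 1,25(OH)2D at 24 h the lowest for HMGCS1 (9.08). At 48 h in vehicle the arrays were replicate 3 for SREBF1 (9.97, highest), replicate 4 for SCAP (9.90, lowest) and replicate 1 for FADS2 (9.91, lowest). Replicate 2 with 1,25(OH)2D at 48 h was the highest for ELOVL5 (12.1) and FADS2 (10.4).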

How the results depend on the processing

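No member called in the report changed direction in any alternative fit run (541 values still called and 93 not). Counts of called members follow. In a fit of all 24 arrays the count was 7 at 24 h and 2 at 48 h, and with the replicate block it was 2 at 6 h and 3 at 48 h, and it changed no other count by over 1.5 times. Same-numbered arrays did not all deviate together (r from -0.889 to 0.756), nor did every array correlate best with its own number, so the numbers were not taken as pairs. With an offset of 32 it was 2 at 6 h and 1 in vehicle from 24 to 48 h. With the mean of probe sets it was 10 at 48 h and 0 for the effect at 48 against 6 h, and the fatty acid arm at 24 h was at 0.172. With centred arrays it was 1 in vehicle from 24 to 48 h and 0 for the effect at 48 against 6 h, and the arms at 24 h were at 0.529 and 0.200. Without the arrays that stood apart it was 3 at 6 h, 17 at 24 h, 6 in vehicle and 12 with 1,25(OH)2D from 24 to 48 h, 9 for the effect at 24 against 6 h and 4 at 48 against 6 h. With 1 array left out at a time, counts ran from 0 to 3 at 6 h (3 without vehicle replicate 1), 0 to 0 at 24 h, 5 to 11 at 48 h (11 without treated replicate 2), 2 to 5 in vehicle from 6 to 24 h (2 without vehicle 6 h replicate 2), 13 to 23 with 1,25(OH)2D from 6 to 24 h, 1 to 14 from 24 to 48 h (14 without treated 24 h replicate 1, 1 without replicate 3, and 2 without treated 48 h replicate 1, 3 or 4) and 1 to 9 for the effect at 24 against 6 h (9 without treated 24 h replicate 1). That last count was 1 without vehicle 6 h replicate 1 or 3, treated 6 h replicate 4, vehicle 24 h replicate 2 or 4, or treated 24 h replicate 2 or 3. The cause of these moves was not tested.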
